A study of Mus musculus with 30 samples.

Results

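Expression of 10 genes of insulin and insulin-like growth factor (IGF) signalling was read across kidney, brain and heart of ageing mice: the ligand gene Igf1, the receptor genes Igf1r and Insr, the docking protein genes Irs1 and Irs2, the IGF-binding protein genes Igfbp3, Igfbp4 and Igfbp5, and the transcription factor genes Foxo1 and Foxo3. Every probe annotated to one of these 10 symbols was taken, which gave 11 probes out of 25697 on the array and 10 genes out of 16593. Igfbp4 had 2 probes and every other gene had 1. The RNA came from 10 male wildtype C57BL/6JRj mice, each of which gave kidney, brain and heart, so that 30 Illumina bead arrays were read. The 25-week controls were 4 mice, the 25-month controls 2 mice and the 25-month rapamycin-treated mice 4. Rapamycin is an inhibitor of the mTOR kinase. Mice had been assigned at random to rapamycin or vehicle. By the treatment protocol, the cohort analysed at 25 months had started on rapamycin when 13 months old and had received it for over 12 months. Each array measured total RNA of a whole tissue sample, so fewer cells of a type and less RNA per cell cannot be told apart.

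The labels conflict on one point. The source name and the age of the samples called 25-month controls here say 25 months, whereas their titles mark them as the young controls. The groups follow the source name and the age. If the titles were right, each difference between 25-month and 25-week controls would change its sign, and the rapamycin mice would be set against the other control group. Each replicate of a group was treated as a separate mouse, and the same replicate number as the same mouse in every tissue.

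Insulin and IGF-1 bind related receptor tyrosine kinases, which phosphorylate the docking proteins IRS1 and IRS2. These recruit phosphatidylinositol 3-kinase, which leads to activation of AKT and, through it, of mTOR complex 1. AKT also phosphorylates the FOXO transcription factors and so keeps them out of the nucleus. The IGF-binding proteins hold IGFs in blood and tissue fluid and control their access to the receptor. Circulating IGF-1 comes mainly from the liver, while kidney, brain and heart also make IGF-1 locally. Reduced activity of the pathway extends lifespan in worms, flies and mice, and rapamycin acts on one of its downstream branches.

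Sequence just upstream of the start was read for 3 genes to which the results return: Igf1, Igfbp4 and Foxo1. The RefSeq promoter table (build GRCm38.p6, 250 bases before the start to 50 after it) held 9 of the 10 genes, with 1 start each. The windows of Igf1, Igfbp3 and Igfbp4 lie inside the interval of their gene, which begins at 87858265 for Igf1 and 99040005 for Igfbp4. The search therefore does not cover the outer end of these genes. A FOXO core motif (GTAAACA, or TGTTTAC on the other strand) was present in 0 of the 9, against 3.65% of all 32851 promoters of the same length. A TATA box (TATAAA or TTTATA) was found in Igfbp4 alone of the 9, against 13.6% of all promoters. A GC box (GGGCGG or CCGCCC) was found in 5 of the 9, namely Igf1r, Irs1, Irs2, Foxo1 and Foxo3, against 35.7% of all promoters. The TATA and GC boxes were added to the search after the data had been seen, and a match or its absence only describes these letters. Capitals mark the TATA box of Igfbp4 and the GC boxes of Foxo1, some of which overlap. The 3 windows, all on the plus strand and written 5′ to 3′, lie at chr10:87860861-87861160 (Igf1), chr11:99040994-99041293 (Igfbp4) and chr3:52268087-52268386 (Foxo1).
Igf1: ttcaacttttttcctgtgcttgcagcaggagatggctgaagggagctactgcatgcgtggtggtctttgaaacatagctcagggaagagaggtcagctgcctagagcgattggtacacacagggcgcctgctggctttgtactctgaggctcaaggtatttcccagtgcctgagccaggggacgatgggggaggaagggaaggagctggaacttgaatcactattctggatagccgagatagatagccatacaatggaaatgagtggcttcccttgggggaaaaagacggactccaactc
Igfbp4: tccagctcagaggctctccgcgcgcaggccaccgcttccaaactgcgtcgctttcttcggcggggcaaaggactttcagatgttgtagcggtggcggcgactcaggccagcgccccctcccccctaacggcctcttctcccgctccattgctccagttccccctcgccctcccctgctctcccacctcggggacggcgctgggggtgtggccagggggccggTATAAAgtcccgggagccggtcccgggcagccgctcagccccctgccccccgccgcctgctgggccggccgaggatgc
Foxo1: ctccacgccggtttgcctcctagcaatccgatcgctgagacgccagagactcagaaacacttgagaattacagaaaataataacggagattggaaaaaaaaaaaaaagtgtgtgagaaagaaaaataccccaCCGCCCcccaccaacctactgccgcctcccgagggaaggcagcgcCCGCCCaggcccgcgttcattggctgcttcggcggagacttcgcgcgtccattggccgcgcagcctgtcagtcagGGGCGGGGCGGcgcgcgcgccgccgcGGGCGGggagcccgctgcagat

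The kidney array of rapamycin mouse 2 stood apart from all others. It detected 9989 probes (detection p-value under 0.05), against 11923 to 13562 on the other 29 arrays, and the median of its correlations with the remaining kidney arrays was 0.858, where those arrays gave 0.982 to 0.992. Kidney results are therefore given with all 10 arrays and with the 9 that exclude it, each set normalised anew. The tissues bore their labels out: of the kidney, brain and heart marker genes tested, 6 of 6, 5 of 5 and 6 of 6 were higher in their own tissue than in either other tissue. Values below are normalised log2 intensities, on which 1 unit is a doubling of signal, and heights of different probes cannot be compared. An adjusted p comes from limma with Benjamini-Hochberg adjustment over all tested probes, and a gene was called when it was under 0.05.

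Of the 10 genes, 8 were detected and tested in all 3 tissues. Insr, which encodes the insulin receptor (chromosome 8, 3150922 to 3279649 on GRCm38.p6), and Foxo3, which encodes a FOXO factor of most tissues (chromosome 10, 42181845 to 42276695), were not above background on any of the 30 arrays. The smallest detection p-value of the Insr probe was 0.120 in kidney, 0.103 in brain and 0.183 in heart, and that of the Foxo3 probe was 0.108, 0.331 and 0.173. Neither was tested. Irs1 lay close to background, being detected on 9 of 10 kidney arrays, 9 of 10 brain arrays and 10 of 10 heart arrays. Igf1r and Igfbp3 were detected on 9 of 10 kidney arrays, the missing array of both being that of rapamycin mouse 2. The remaining tested probes were detected on every array.

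**Figure D1:**
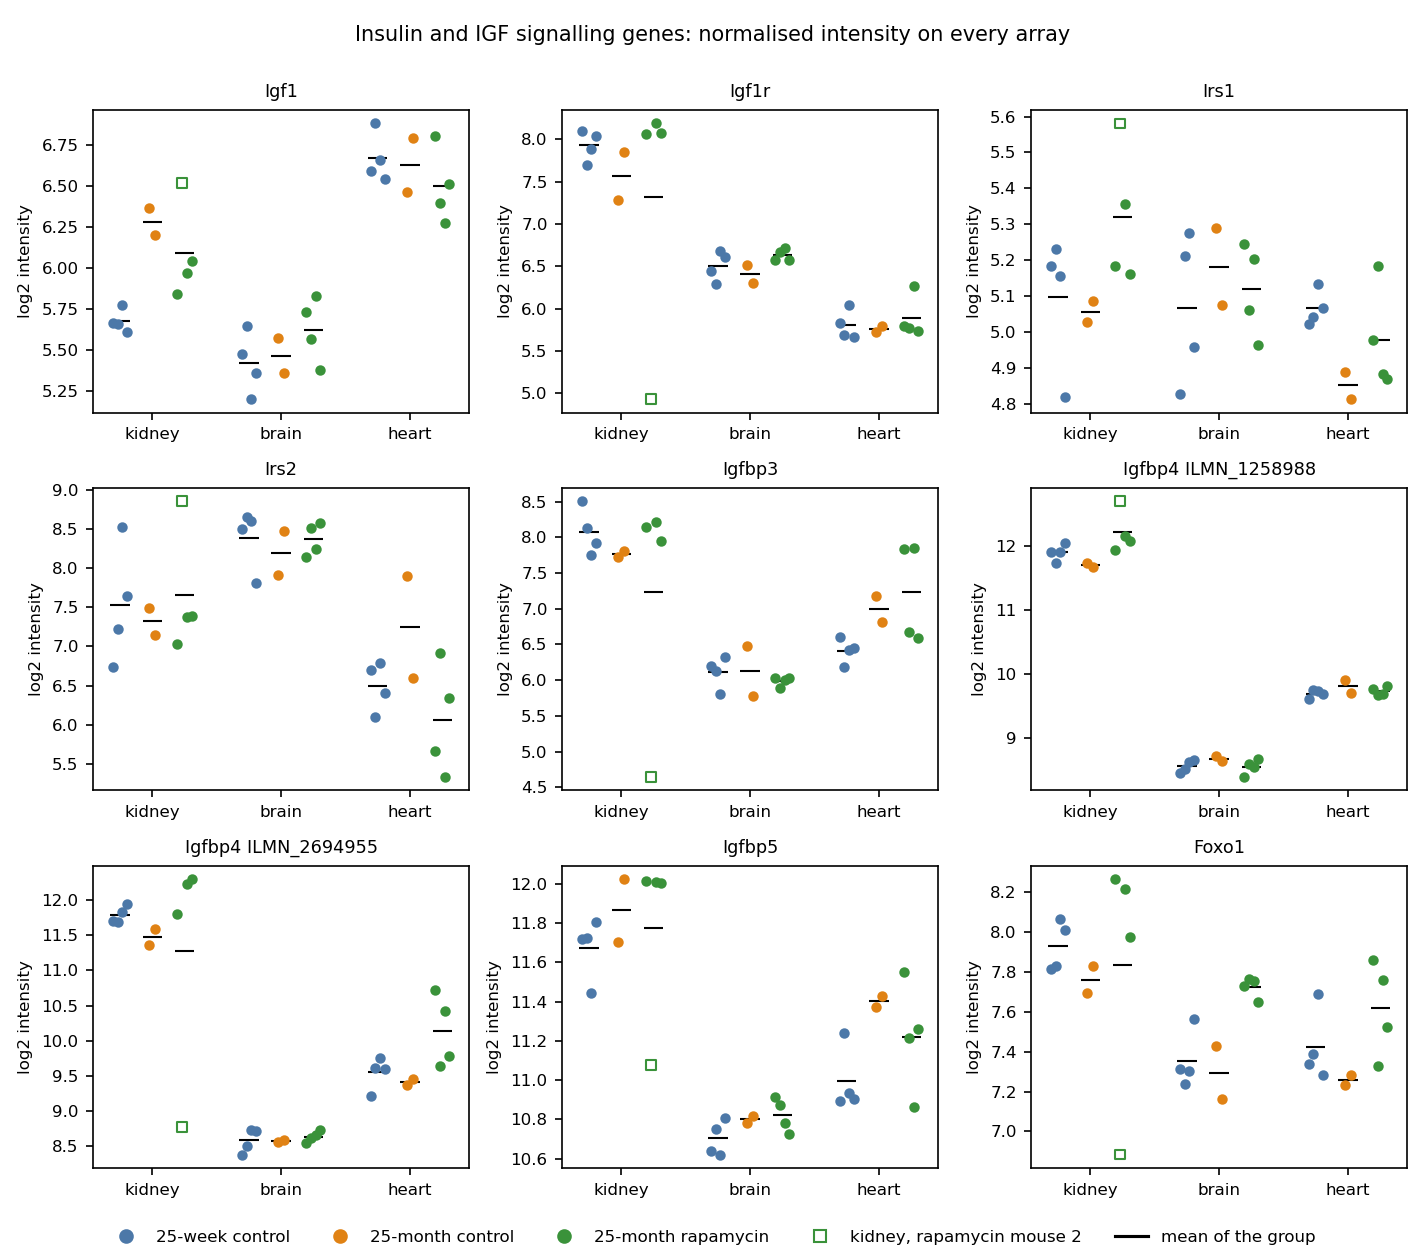
Normalised log2 intensity (vertical axes) of the 9 tested probes on every array, in kidney, brain and heart. Points are mice, colours are the 3 groups and bars are group means. The open square is the kidney array of rapamycin mouse 2, which lay far below the rest for Igf1r (4.93) and Igfbp3 (4.65).

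Most of these genes differed between the tissues of young mice. All 30 arrays were normalised together for this comparison and each mouse was a random block. Among the 25-week controls, 7 of the 8 tested genes were higher in kidney than in brain. Over all genes of the array, 64.8% differed between these tissues and 32.7% were higher in kidney. Between kidney and heart, 4 of the 8 were higher and 1 lower in kidney, where 54.9% of all genes differed, 24.9% being higher and 30% lower. Between brain and heart 1 of the 8 was higher and 5 lower in brain, where 64.6% of all genes differed, 30.8% being higher and 33.8% lower. The IGF-binding protein Igfbp4 had the widest range: its probe ILMN_1258988 measured 11.82, 11.65, 11.83 and 11.96 in kidney, 8.23, 8.31, 8.42 and 8.46 in brain and 9.78, 9.92, 9.91 and 9.86 in heart. No 2 tissues overlapped. Kidney exceeded brain by a log2 difference of 3.46 ± 0.11 SE (adjusted p = 8.85e-20), and kidney exceeded heart by 1.95 ± 0.11 (adjusted p = 4.76e-14).

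Igf1, the ligand, was instead highest in heart. It measured 6.85, 7.14, 6.92 and 6.81 in the 4 young hearts, 5.77, 5.77, 5.88 and 5.72 in the kidneys and 5.24, 5.39, 5.01 and 5.14 in the brains, with no overlap between tissues. Heart exceeded kidney (kidney minus heart -1.15 ± 0.13 SE, adjusted p = 2.64e-08) and kidney exceeded brain by 0.59 ± 0.13 (adjusted p = 0.000309). Igf1r, the IGF-1 receptor, had the opposite leading tissue, with 8.12, 7.73, 7.92 and 8.07 in kidney against 6.14, 5.99, 6.38 and 6.31 in brain and 6.08, 5.94, 6.30 and 5.90 in heart. Kidney was 3.38-fold above brain (adjusted p = 0.000298) and 3.76-fold above heart (adjusted p = 0.000152), while brain and heart differed by 0.15 (adjusted p = 0.762).

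The docking protein Irs2 measured 8.30, 8.45, 8.39 and 7.55 in brain and 6.96, 6.36, 7.05 and 6.67 in heart, without overlap (brain minus heart 1.41 ± 0.36 SE, adjusted p = 0.00122). Its kidney values spread from 6.82 to 8.54 and overlapped both. Kidney minus heart was 0.82 and did not pass the test with 30 arrays (adjusted p = 0.0553) but did with 29 (adjusted p = 0.0216), with median scaling (1.07, adjusted p = 0.00779) and without 25-week control 1 (1.14, adjusted p = 0.0257). Irs1, the other docking protein, was lower in brain than in kidney (kidney minus brain 0.27 ± 0.11, adjusted p = 0.0306) and in heart (brain minus heart -0.34 ± 0.11, adjusted p = 0.0074), though its brain values of 4.72 to 5.07 overlapped those of kidney, 4.87 to 5.33. The kidney and brain call of Irs1 was lost without 25-week control 1 (0.18, adjusted p = 0.244), without 25-week control 2 (0.26, adjusted p = 0.0876) and with median scaling (0.22, adjusted p = 0.0755), and its brain and heart call was lost with median scaling (-0.21, adjusted p = 0.088). Igfbp3, the main IGF carrier of the blood, ran from 7.79 to 8.52 in kidney, 6.44 to 6.86 in heart and 5.54 to 6.03 in brain. Its kidney level exceeded brain by 2.28 ± 0.45 (adjusted p = 8.28e-05) and heart by 1.43 ± 0.45 (adjusted p = 0.00923), the latter lost without 25-week control 2 (1.33, adjusted p = 0.0521). Brain and heart did not pass the test with 30 arrays (adjusted p = 0.106) but did with 29, leaving out the low kidney array (adjusted p = 0.000532).

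Igfbp5, a binding protein that attaches to extracellular matrix, followed the order kidney, heart, brain, with 11.36 to 11.72, 10.99 to 11.30 and 10.55 to 10.75. All 3 steps passed the test, with kidney above brain by 0.94 ± 0.15 SE (adjusted p = 4.86e-06). The step from kidney to heart was lost without 25-week control 4 (0.43, adjusted p = 0.0579), and that from brain to heart without 25-week control 2 (-0.38, adjusted p = 0.0783) and with median scaling (-0.46, adjusted p = 0.0603). Foxo1, a FOXO factor that drives gluconeogenic and atrophy genes, ran from 7.85 to 8.09 in kidney, 7.54 to 7.94 in heart and 6.95 to 7.30 in brain. Kidney and heart overlapped (adjusted p = 0.194, and 0.02 with 29 arrays), and brain was below both, by 0.89 ± 0.18 against kidney (adjusted p = 8.51e-05). With median scaling Foxo1 did not pass between brain and heart (-0.21, adjusted p = 0.591). The 3 tissues of a mouse share that mouse, and the estimated correlation within mice was 0.0848.

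**Figure D2:**
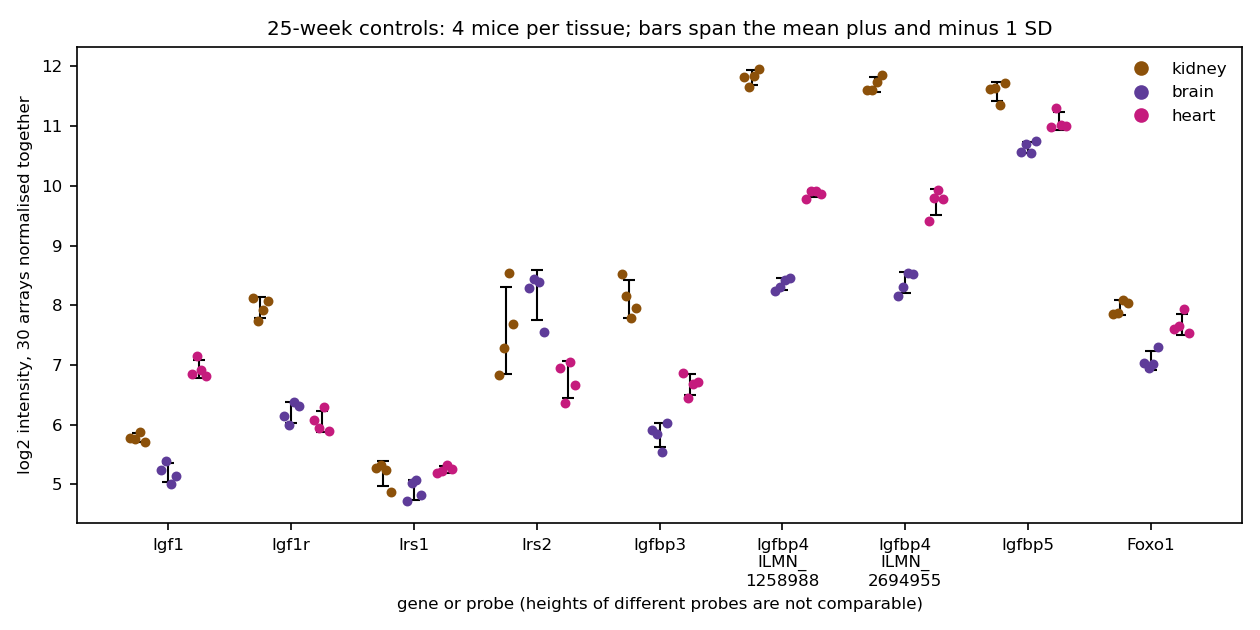
Log2 intensity of the tested probes in the 25-week controls, 4 mice per tissue, with all 30 arrays normalised together. Bars span the mean plus and minus 1 SD. Igfbp4 and Igf1r are highest in kidney, Igf1 in heart, and Irs2 is higher in brain than in heart.

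With all 10 kidney arrays, none of the 8 genes was called between 25-month and 25-week controls by limma, and 1 had an unadjusted p under 0.05. Over all genes 0.124% were called and 6.62% had an unadjusted p under 0.05. With the 9 arrays that leave out rapamycin mouse 2, 10.1% of all genes were called, 5.95% as higher at 25 months, and 1 of the 8, Igf1, was among the higher ones. On those 9 arrays Igf1 (chromosome 10, 87858265 to 87937047) measured 5.74, 5.73, 5.85 and 5.68 in the 25-week kidneys and 6.46 and 6.29 in the 25-month control kidneys. The 25-month controls lay above every young kidney, by 0.62 ± 0.11 SE on the log2 scale (95% interval 0.39 to 0.86, 1.54-fold, adjusted p = 0.00749). With all 10 arrays the difference was 0.61 ± 0.20 and its adjusted p was 0.498. The higher of the 2 older kidneys, 25-month control 1 (6.46), also had the lowest median correlation with the other kidney arrays among these 9. Its value was 0.982, where the rest gave 0.988 to 0.992. Without 25-month control 1 the difference was 0.54 and the adjusted p 0.128, with 1 mouse left in that group, assumed to vary like the other groups.

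The rapamycin kidneys lay between the control groups in Igf1. Mice 1, 3 and 4 measured 5.92, 6.06 and 6.13, above all young kidneys and below both 25-month control kidneys. They were lower than the 25-month controls by a log2 difference of -0.34 ± 0.11 SE (95% interval -0.59 to -0.09) and higher than the young by 0.28 ± 0.10, but neither passed the test (adjusted p = 0.303 and 0.0904). Rapamycin mouse 2, on the 10-array scale, measured 6.52, above both 25-month controls at 6.37 and 6.20, and with it the difference between rapamycin and 25-month controls was -0.19 ± 0.20 (adjusted p = 0.825).

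Markers of other kidney cells were read on the same arrays. Of 9 tested macrophage markers, 8 were higher in 25-month than in 25-week control kidneys on the 9 arrays, with a median log2 difference of 1.15, among them the complement genes C1qb (1.47) and C1qc (1.36). Their summed intensity was 1244 to 1464 in the young kidneys, 2456 to 3825 in the 25-month controls and 2952 to 3884 in the rapamycin kidneys, with 8 or 9 of the 9 detected on each array. In rapamycin kidneys 9 of 9 were above the young (median 1.22), and 0 of 9 differed from the 25-month controls (limma; 1 at an unadjusted p under 0.05). Of 6 markers of the thick limb, distal tubule and collecting duct, 5 were higher in the 25-month controls than in the young (median 0.75), among them the water channel gene Aqp2 (1.15) and the potassium channel gene Kcnj1 (0.77). Their summed intensity was 20568 to 23697 in the young, 33473 to 34963 in the 25-month controls and 21094 to 28241 in the rapamycin kidneys. All 6 had a negative difference between rapamycin and 25-month controls (median -0.69), and none was called by limma, though 5 had an unadjusted p under 0.05. The summed intensity of 6 proximal tubule markers went the other way. It was 36363 to 38650 in the young, 29637 to 34179 in the 25-month controls and 35466 to 37514 in the rapamycin kidneys. The 25-month controls thus lay below both other groups without overlap, with all 6 detected on each array. Of 6 fibroblast markers, 2 were higher in the 25-month controls than in the young (median 0.25), the matrix proteoglycan genes Dcn (1.09) and Lum (0.72). Their summed intensity was 1025 to 1141 in the young, 1757 to 1972 in the 25-month controls and 1664 to 2206 in the rapamycin kidneys, with 4 of 6 detected on each young array and 6 of 6 on the others. In rapamycin kidneys 3 of 6 were above the young, and 0 of 6 differed from the 25-month controls (limma; 2 at an unadjusted p under 0.05). Over all genes on these 9 arrays, 10.1% were called with age and 8.94% between rapamycin and young. Between rapamycin and 25-month controls 0% were called and 11.7% had an unadjusted p under 0.05. The part of these cell types in the Igf1 result was not tested. Over 9 arrays and 9549 genes, the genes most like Igf1 by Pearson correlation were Cadps2 (r = 0.968), Dab2ip (0.966) and Scg5 (0.964), a description across arrays that share the same groups.

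**Figure D3:**
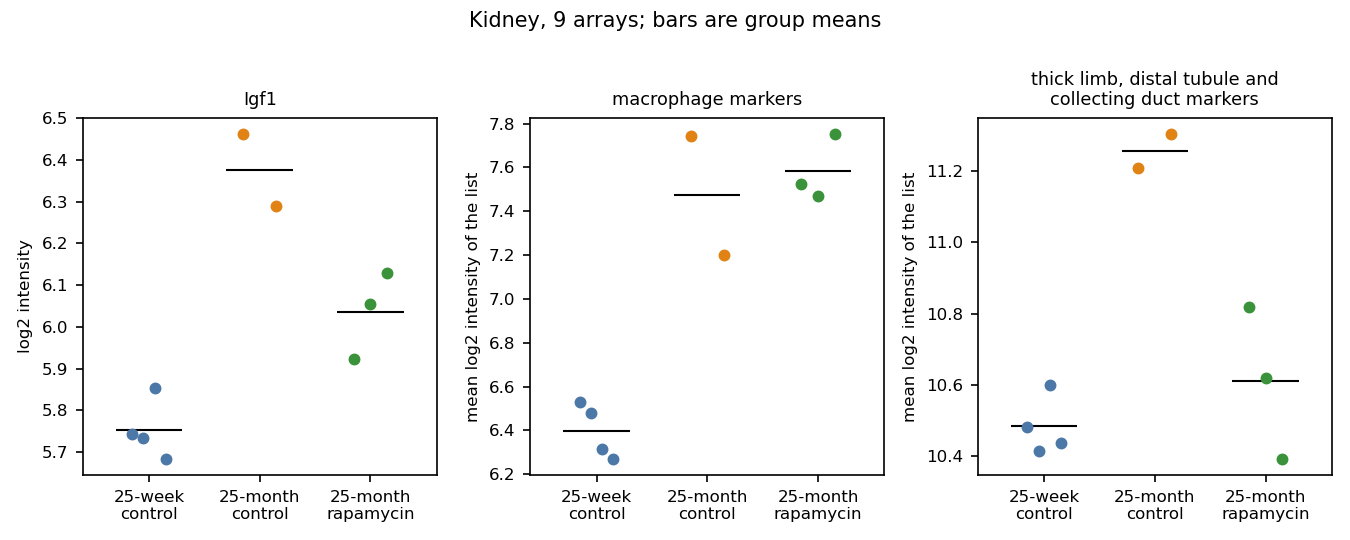
Log2 intensity in the 9 kidney arrays of Igf1 (left), and mean log2 intensity of the macrophage markers (middle) and of the thick limb, distal tubule and collecting duct markers (right), by group. Points are mice and bars group means. The 25-month controls are the highest group for Igf1 and for the tubule markers, and macrophage markers are high in both 25-month groups.

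In brain and heart the age difference of Igf1 did not pass the test. It measured 5.48, 5.65, 5.20 and 5.36 in the 25-week brains and 5.57 and 5.36 in the 25-month control brains, which overlapped (log2 difference 0.04, 95% interval -0.27 to 0.35). In heart the values were 6.59, 6.88, 6.66 and 6.55 against 6.46 and 6.79 (log2 difference -0.04, 95% interval -0.40 to 0.31). The difference of the age effects was tested in the joint fit. With 29 arrays the age effect of Igf1 was larger in kidney than in heart by 0.64 ± 0.19 SE (95% interval 0.25 to 1.03, adjusted p = 0.0472), in a test that called 5.04% of all genes. Against brain the excess was 0.56 ± 0.19 and did not pass (adjusted p = 0.0985; 4.1% of all genes called). With all 30 arrays none of the 8 genes passed the test of a difference in age effect between tissues, where 1.08% of all genes were called between kidney and heart, 0.767% between kidney and brain and 0.216% between brain and heart. The rapamycin brains measured 5.73, 5.56, 5.83 and 5.38 and the rapamycin hearts 6.81, 6.39, 6.28 and 6.52, both overlapping the controls.

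Among the receptors, Igf1r (chromosome 7, 67952257 to 68233668) measured 8.20, 7.79, 7.98 and 8.14 in the 25-week kidneys, 7.38 and 7.95 in the 25-month controls and 8.16, 8.28 and 8.17 in rapamycin mice 1, 3 and 4. The 3 rapamycin kidneys were above both 25-month controls, by a log2 difference of 0.54 ± 0.17 SE (1.45-fold, unadjusted p = 0.00927, adjusted p = 0.292), which did not pass the test. On the 10-array scale mouse 2 measured 4.93, and the difference with it was -0.25 ± 0.78. The age difference, -0.36 ± 0.16, did not pass the test (adjusted p = 0.187). In brain, Igf1r was 6.58, 6.67, 6.72 and 6.58 in the rapamycin mice and 6.52 and 6.30 in the 25-month controls. The difference of 0.23 ± 0.12 did not pass the test (adjusted p = 0.552). In heart the rapamycin mice measured 5.79, 5.77, 6.26 and 5.73, of which mouse 3 stood above the other 9 hearts, and the remaining hearts ran from 5.66 to 6.04.

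The docking proteins gave no called difference in any tissue. Irs2 (chromosome 8, 10984681 to 11008929) measured 6.70, 6.10, 6.79 and 6.41 in the 25-week controls, 7.90 and 6.60 in the 25-month controls and 5.66, 6.92, 5.34 and 6.34 in the rapamycin mice, all in heart. The 25-month control and rapamycin hearts overlapped, and the difference of -1.18 ± 0.42 SE (95% interval -2.09 to -0.28) had an unadjusted p of 0.0148 and an adjusted p of 0.339. In kidney Irs2 spread from 6.84 to 8.61 among the 4 young mice alone. Irs1 (chromosome 1, 82233105 to 82291439) was near background, at 4.89 and 4.81 in the 25-month control hearts against 5.02, 5.04, 5.13 and 5.07 in the young. The difference of -0.21 ± 0.12 did not pass the test (adjusted p = 0.502).

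Igfbp4, whose protein mostly restrains IGF action (chromosome 11, 99040005 to 99052655), was read by 2 probes. It measured 11.77, 11.76, 11.90 and 12.02 in the 25-week kidneys with probe ILMN_2694955, 11.44 and 11.66 in the 25-month controls and 11.87, 12.29 and 12.37 in rapamycin mice 1, 3 and 4. The 25-month controls lay below all others, and rapamycin exceeded them by 0.63 ± 0.16 SE (95% interval 0.28 to 0.97, 1.54-fold, unadjusted p = 0.00216, adjusted p = 0.219). With probe ILMN_1258988 the corresponding values were 11.97, 11.81, 11.99 and 12.12, then 11.81 and 11.74, then 12.01, 12.23 and 12.15. The rapamycin kidneys again lay above both 25-month controls, by 0.36 ± 0.12 (adjusted p = 0.309). The probes parted on the kidney array of mouse 2, which read 8.77 with the first and 12.71 with the second on the 10-array scale, the lowest and the highest kidney value of each.

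Heart also separated the Igfbp4 probes. ILMN_2694955 measured 9.22, 9.62, 9.76 and 9.61 in the 25-week hearts, 9.37 and 9.46 in the 25-month controls and 10.72, 9.64, 10.43 and 9.79 in the rapamycin mice. The rapamycin hearts exceeded the 25-month controls by 0.73 ± 0.26 SE, which did not pass the test (1.66-fold, unadjusted p = 0.0163, adjusted p = 0.343), and mice 1 and 3 were above every other heart. ILMN_1258988 gave 9.77, 9.67, 9.69 and 9.82 in the same mice against 9.92 and 9.71, a difference of -0.08 ± 0.11. In brain the probes gave rapamycin minus 25-month control differences of 0.06 ± 0.11 and -0.13 ± 0.10, with overlapping groups.

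Igfbp3 (chromosome 11, 7206086 to 7215498) split the hearts in the same way. It measured 6.60, 6.18, 6.42 and 6.45 in the 25-week hearts, 7.18 and 6.82 in the 25-month controls and 7.84, 6.68, 7.85 and 6.59 in the rapamycin mice. The 25-month controls exceeded the young hearts by 0.59 ± 0.33 SE (adjusted p = 0.511), and rapamycin exceeded young by 0.83 ± 0.27 (1.77-fold, unadjusted p = 0.0101, adjusted p = 0.164). In kidney the 3 rapamycin arrays at 8.24, 8.31 and 8.05 were above the 25-month controls at 7.82 and 7.91, by 0.33 ± 0.19 (adjusted p = 0.507). In brain the groups overlapped, between 5.77 and 6.48.

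Igfbp5 (chromosome 1, 72858065 to 72874865) was 11.37 and 11.43 in the 25-month control hearts and 10.89, 11.24, 10.93 and 10.90 in the young. The difference of 0.41 ± 0.17 SE did not pass the test (unadjusted p = 0.0351, adjusted p = 0.349). In kidney the rapamycin arrays gave 12.08, 12.08 and 12.07 against 11.79, 11.79, 11.51 and 11.87 in the young, a difference of 0.34 ± 0.11 that did not pass the test (adjusted p = 0.0916). In brain all 10 values lay between 10.62 and 10.91. Of 9 macrophage markers, 1 was higher in 25-month than in 25-week control hearts (median log2 difference 0.67), with a summed intensity of 2000 to 3805 in the young and 3367 to 4854 in the 25-month controls and all 9 detected. Over all genes 0.763% were called in that comparison. The part of macrophages in the binding protein values was not tested.

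Foxo1 (chromosome 3, 52268337 to 52350109) had a higher mean in rapamycin mice than in 25-month controls in each tissue, but the difference passed the test in none of them. On the 9 kidney arrays the groups did not overlap, as was so for 24.7% of all genes. In brain Foxo1 measured 7.73, 7.76, 7.76 and 7.65 in the rapamycin mice, 7.43 and 7.16 in the 25-month controls and 7.31, 7.24, 7.30 and 7.57 in the 25-week controls. The rapamycin brains exceeded the 25-month controls by 0.43 ± 0.11 SE (95% interval 0.19 to 0.67, 1.35-fold, unadjusted p = 0.00194, adjusted p = 0.301) and the young by 0.37 ± 0.09 (1.29-fold, adjusted p = 0.0801). In the 9 kidney arrays Foxo1 was 8.36, 8.31 and 8.07 against 7.79 and 7.93, a difference of 0.39 ± 0.13 (1.31-fold, adjusted p = 0.303). The young kidneys, at 7.91, 7.93, 8.16 and 8.11, overlapped the rapamycin kidneys. In heart it was 7.86, 7.33, 7.76 and 7.52 against 7.23 and 7.28, a difference of 0.36 ± 0.16 (1.28-fold, adjusted p = 0.43), with young hearts at 7.34, 7.39, 7.69 and 7.28. With all 10 kidney arrays, where mouse 2 measured 6.88, the kidney difference was 0.07 ± 0.34. The 3 tissues come from the same 10 mice and are not independent.

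Endothelial markers had positive differences between rapamycin and 25-month controls for 7 of 7 genes in the 9 kidney arrays (median 0.29), 6 of 7 in heart (0.49) and 6 of 7 in brain (0.13). Beside 11.7%, 12.1% and 9.44% of all genes, 4, 4 and 1 of them had an unadjusted p under 0.05, and none was called by limma. Their summed intensity in heart was 5780 to 6178 in the young, 5327 to 5937 in the 25-month controls and 6210 to 6938 in the rapamycin mice, with 7 of 7 detected. In kidney it was 2992 to 3147, 3135 to 3530 and 3297 to 4049. In brain it was 1320 to 1372, 1304 to 1431 and 1209 to 1515, with 5 to 7 of 7 detected. Over all genes in brain, 1.04% were called with age, 1.29% between rapamycin and young and 0.0299% between rapamycin and 25-month controls. Of 9 macrophage markers, 5 were higher in 25-month than in 25-week control brains and 6 in rapamycin than in 25-week brains, and 0 between rapamycin and 25-month control brains (limma; 0 at an unadjusted p under 0.05). Their summed intensity was 2287 to 2554 in the young, 3297 to 3548 in the 25-month controls and 3402 to 3753 in the rapamycin brains, with all 9 detected. Of 7 choroid plexus and meninges markers in brain, 5 had a negative difference between rapamycin and 25-month controls (median -0.33), and none was called by limma. Beside 9.44% of all genes, 4 of the 7 had an unadjusted p under 0.05. Their summed intensity was 8860 to 12433 in the young, 11699 to 14100 in the 25-month controls and 8240 to 10248 in the rapamycin brains, with 5 to 7 of 7 detected, so that rapamycin lay below the 25-month controls without overlap. All 5 tested brain markers had a positive difference (median 0.12). Beside 9.44% of all genes, 1 of these markers had an unadjusted p under 0.05, and 0 were called by limma. Their summed intensity was 23277 to 25173 in the young, 23741 to 24507 in the 25-month controls and 25426 to 26006 in the rapamycin brains, which lay above both. The part of these cells in the Foxo1 values was not tested.

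**Figure D4:**
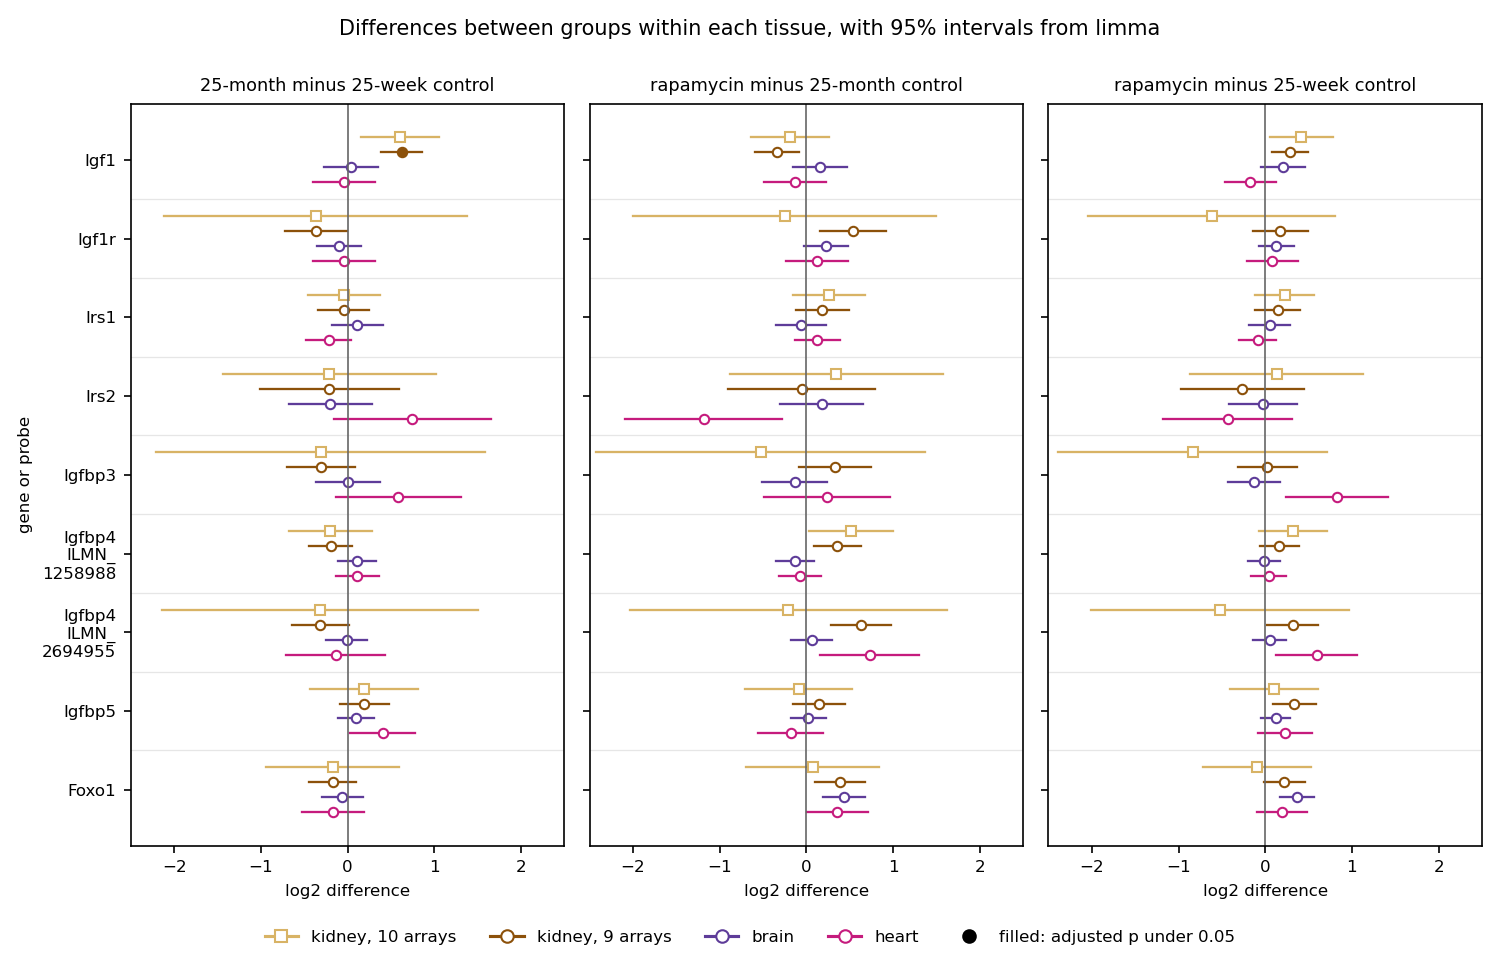
Log2 differences with 95% limma intervals for each tested probe in the 3 comparisons, for all 10 kidney arrays, the 9 kidney arrays without rapamycin mouse 2, brain and heart. Filled points passed an adjusted p of 0.05, which was the case only for Igf1 in the 9-array kidney age comparison (0.62). Kidney intervals are far wider with 10 arrays than with 9.

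Between rapamycin and 25-month controls, then, none of the 8 genes was called by limma in any tissue. The share of all genes called was 0% with 10 and with 9 kidney arrays, 0.0299% in brain and 0% in heart. At an unadjusted p under 0.05 there were 1 of the 8 with 10 kidney arrays, 4 with 9, 1 in brain and 3 in heart, beside 3.16%, 11.7%, 9.44% and 12.1% of all genes. Among the 3 in heart was Igfbp4, counted by probe ILMN_2694955, which also stood for it in the other heart comparisons. That probe had the higher mean signal only through the rapamycin hearts (10.14 against 9.74 for ILMN_1258988). It was the lower probe in 25-month control hearts (9.41 against 9.81) and in young hearts (9.55 against 9.70). With ILMN_1258988 the rapamycin mean, 9.74, was below that of the 25-month controls, 9.81. On the 9 kidney arrays 6 of the 8 genes did not overlap between these groups, all but Irs2 and Igfbp5, in a comparison of 3 mice against 2 in which 24.7% of all genes did not overlap. Their median difference was 0.26, with 6 positive and 2 negative, beside a median of 0.01 over all genes. Between rapamycin and 25-week controls none of the 8 was called either, with 0.414% of all genes called on 10 kidney arrays, 8.94% on 9, 1.29% in brain and 1.17% in heart. Unadjusted p-values under 0.05 there numbered 1, 2, 1 and 2 of the 8, beside 13.2%, 26.3%, 12.7% and 18.8% of all genes. With the replicate number as a block, the 9 kidney arrays called 4.85% of all genes between these groups and again none of the 8. Between 25-month and 25-week controls 1.04% of all genes were called in brain and 0.763% in heart, none of them among the 8, and 0 of the 8 in brain and 1 in heart had an unadjusted p under 0.05, beside 13.1% and 12.9% of all genes. On the 9 kidney arrays 2 of the 8 did, beside 26.5%. These comparisons share control arrays.

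Rapamycin hearts were not alike. Mice 1 and 3 were the highest of the 10 hearts for Igfbp3, Igfbp4 probe ILMN_2694955 and Foxo1, and the lowest for Irs2, whereas mice 2 and 4 lay nearer the young controls. For other genes mice 1 and 3 parted. In Igfbp5, mouse 1 was the highest heart (11.55) and mouse 3 the lowest (10.86). Mouse 3 was the lowest in Igf1 (6.28, mouse 1 6.81) and the highest in Igf1r (6.26, mouse 1 5.79). The mean log2 intensity of 6 heart markers was 12.82 and 12.83 on the arrays of mice 1 and 3 and 12.38 to 12.52 on the other 8. The median correlations of these 2 arrays with the other hearts were 0.983 and 0.987, and they detected 12686 and 12526 probes. The part of these array differences in the members' values was not tested. Over the 10 hearts, Igfbp4 probe ILMN_2694955 correlated with Foxo1 at r = 0.893 and with Irs2 at r = -0.758, as a description of arrays that share these mice. These were the highest and the lowest r of all pairs of tested member probes in heart.

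**Figure D5:**
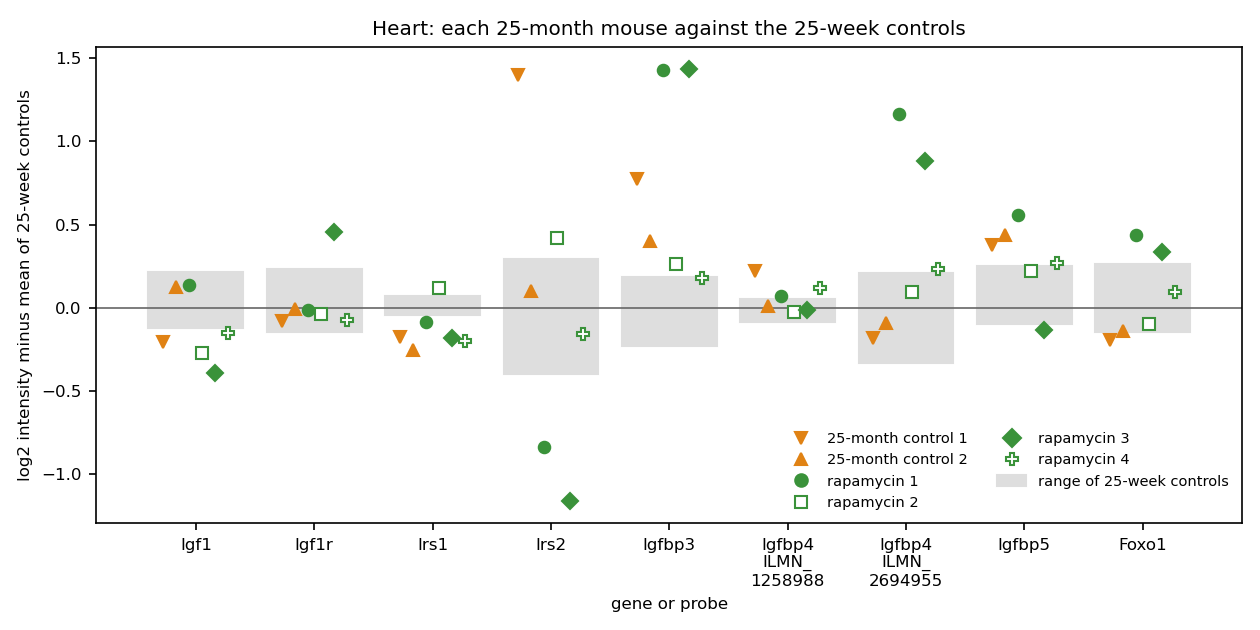
Heart log2 intensity of each 25-month mouse minus the mean of the 25-week controls, by probe. Grey boxes span the 4 young hearts, triangles are the 25-month controls and the other symbols the rapamycin mice. Rapamycin mice 1 and 3 lie together above the grey range for Igfbp3, Igfbp4 probe ILMN_2694955 and Foxo1, and below it for Irs2. They lie apart for Igfbp5.

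The closest relatives of these genes also marked the tissues. Igf2, the second IGF ligand gene, measured 11.05 to 11.29 in the 25-week brains, and kidney lay far below brain (kidney minus brain -4.49 ± 0.18 SE, adjusted p = 1.12e-17) and heart (-3.52 ± 0.18, adjusted p = 4.32e-15). Igfbp7, a matrix protein related to the IGF-binding proteins, had the reverse pattern, with kidney above brain by 3.94 ± 0.17 (adjusted p = 2.45e-17) and above heart by 1.52 ± 0.17 (adjusted p = 1.46e-08). Igf2r, which clears IGF-2, was lowest in brain (kidney minus brain 2.08 ± 0.19, adjusted p = 3.39e-10; brain minus heart -2.67 ± 0.19, adjusted p = 2.36e-12). Igfbp2 was detected in all brains (6.58 to 7.24 in the young) but in no young kidney and no heart. Igfbp6 measured 7.35 to 7.49 in the young brains and 6.82 to 7.50 in the young hearts, and was not above background in any young kidney. Igfbp1 was not above background on any kidney, brain or heart array. In brain and heart none of the tested relatives was called by limma in any age or treatment comparison (0 in brain and 1 in heart at an unadjusted p under 0.05), including Igf2 in heart, at 10.39 in both 25-month controls against 9.91 to 10.09 in the young (adjusted p = 0.428). Over all genes, 9.44% to 13.1% in brain and 12.1% to 18.8% in heart had an unadjusted p under 0.05.

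The rest of the pathway was read from 5 lists with 80 genes on the array, chosen with earlier results of these data known. With all 10 kidney arrays no gene of these lists was called by limma in any comparison, and at most 5 of a list had an unadjusted p under 0.05. Over all genes, 0% to 0.414% were called and 3.16% to 13.2% had such a p. On 9 kidney arrays, 1 of 11 other ligands, receptors, binding proteins and proteases was higher and 2 were lower in 25-month than in 25-week controls. Over all genes 10.1% were called in that comparison. Igfbp6, which prefers IGF-2, was the higher one, by at least 1.37-fold. It was detected in both 25-month controls, in 1 rapamycin kidney and in no young kidney. Igfbp6 thus passed the detection filter only through the 25-month groups, and its call cannot serve as support for an age difference. Ide, the insulin-degrading protease, was lower (log2 difference -0.68 ± 0.16 SE, adjusted p = 0.0219), as was the growth hormone receptor gene Ghr (-0.56 ± 0.15, adjusted p = 0.0433). None of 9 adapters was called (2 at an unadjusted p under 0.05, beside 26.5% of all genes). Of 13 genes from phosphatidylinositol 3-kinase to AKT, the regulatory subunit gene Pik3r3 was higher (0.90 ± 0.14, adjusted p = 0.00496). Of 12 inhibitors, Socs3, a feedback inhibitor of cytokine and insulin receptor signalling, was higher (1.99 ± 0.32, adjusted p = 0.00579).

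Of 19 FOXO target genes tested in those kidneys, 2 were higher and 2 lower with age, where 10.1% of all genes were called. The mTOR complex 1 inhibitor gene Ddit4 (log2 difference 0.61, adjusted p = 0.0171) and the transcription factor gene Klf2 (0.40, adjusted p = 0.0381) were higher. G6pc, the last enzyme of gluconeogenesis (-0.64, adjusted p = 0.0138), and the ubiquitin ligase gene Trim63 (-0.59, adjusted p = 0.0235) were lower. Between rapamycin and 25-month control kidneys none of the 5 lists held a called gene, and at an unadjusted p under 0.05 there were 1 of 11, 0 of 9, 5 of 13, 0 of 12 and 0 of 19 in the order above. Over all genes 0% were called and 11.7% had such a p. Between rapamycin and 25-week kidneys Socs3 (1.61, adjusted p = 0.00725), Ddit4 (0.79, adjusted p = 0.00303) and Klf2 (0.62, adjusted p = 0.00345) were again higher. Igfbp2, another IGF-binding protein gene, was at least 1.36-fold higher. The phosphatase gene Inpp5d, active mainly in blood cells, was at least 1.42-fold higher. Neither was above background in the young kidneys. Both thus passed the detection filter only through older kidneys, and their calls cannot serve as support for a group difference. Ide (-0.62, adjusted p = 0.0198) and the IGF-2 scavenger receptor gene Igf2r (-0.49, adjusted p = 0.046) were lower. In all, that comparison called 2 higher and 2 lower of the 11, 1 and 1 of the 13, 2 higher of the 12, 2 higher of the 19 and none of the 9 adapters. Over all genes it called 8.94%.

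Brain and heart had few called genes in these lists. Over all genes, 1.04% in brain and 0.763% in heart were called with age, and 1.29% and 1.17% between rapamycin and young. With age, Socs3 was higher in brain (log2 difference 0.87 ± 0.13 SE, adjusted p = 0.00665), as 1 of 12 inhibitors. Its difference between rapamycin and 25-month control brains was -0.77 ± 0.13 and missed the threshold (adjusted p = 0.0962). Ddit4 was higher in rapamycin than in 25-week brains (0.51 ± 0.10, adjusted p = 0.029). In heart the FOXO target Pdk4, a kinase that restrains pyruvate oxidation, was lower in 25-month than in 25-week controls (-1.96 ± 0.28, adjusted p = 0.00877), the only called gene of 18. In rapamycin hearts Pdk4 differed from 25-month controls by 1.23 (adjusted p = 0.222) and Ddit4 by 1.02 (adjusted p = 0.213), neither passing the test. One further brain value bears on the 25-month controls: Slc34a1, a kidney phosphate transporter gene, was detected in both 25-month control brains. It was at least 1.60-fold above the young brains and at least 1.64-fold above the rapamycin brains, where it was not above background. Slc34a1 passed the detection filter only through the 2 arrays in which it was high, so its test cannot serve as support for a group difference. Of the 6 kidney markers on the array, Slc34a1 and 1 other were detected often enough to be tested in brain. Of 7 thick limb, distal tubule and collecting duct markers 1 was tested there. Of 6 proximal tubule markers 4 were tested, with 4 detected in each 25-month control brain and 2 or 3 in the other brains. Detection on 2 arrays was enough to be tested, so the counts in the 25-month control brains may follow from that filter. Whether these brain samples held other tissue was not tested.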

How the data were processed

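The authors' deposited table holds, per the file headers, non-normalised bead intensity per probe on every array, with its detection p-value; the submitters' processing notes name GenomeStudio 2011.1. A deposited value table holds the authors' processed intensity of the same arrays, whose processing is not given in the sources used here; it served as an alternative, floored at 16. All columns matched a sample by name, and 0 columns of per-sample values were left unused. Of 25697 probes, 23978 had 1 gene symbol and 1719 none; 23962 Entrez identifiers matched RefSeq, and 0 symbols changed. The members and lists were chosen with earlier results of these data known, as was the exclusion of 1 kidney array (rapamycin mouse 2).

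Intensities were corrected for background, quantile-normalised and log2-transformed by limma's neqc (offset 16) within each tissue, and over all arrays for comparisons between tissues. The deposited intensity and detection p-value were otherwise used as given. A probe was tested where its detection p-value was under 0.05 on at least 2 arrays. Group means were fitted with lmFit and eBayes (limma 3.58.1 in R 4.3.3), with mouse as a random block over tissues (correlation 0.0848 with 30 arrays, 0.0828 with 29), and p-values were adjusted over all tested probes. In counts of genes, the tested probe with the highest mean signal in that set of arrays stood for its gene, so the probe can differ between tissues. All members were named; of each pathway or marker list, up to 4 called genes of smallest adjusted p, or the 2 of smallest p where none was called, could be named. The number of arrays limits the precision. The code was tested on simulated data. Alternatives to these steps were no background correction, median scaling, the authors' deposited value table, no detection filter or a stricter one (0.01 on 4 arrays), array weights, only the arrays compared, a replicate block, the grouping by title, and each mouse left out. Same-numbered mice did not deviate together in general, but on the 9 kidney arrays all 3 same-numbered rapamycin and 25-week mice did (correlations 0.35, 0.17 and 0.19), from the data and not from a stated pairing. The files named 0 slides, so slide was not fitted. A probe not above background in 1 group has only a bound there, given as at least a fold.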

Additional observations from a re-analysis of the deposited data

Results flagged for a closer look

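A single array lay far from the rest of its group in 6 of 54 groups of 4 mice and probes, where chance gives about 1 in 20. Most of the 6 came from 1 kidney array, so they are not independent and their number shows no excess over that share. In kidney, rapamycin mouse 2 was the distant array for Igf1r (4.934), Igfbp3 (4.649), Igfbp4 probe ILMN_2694955 (8.771) and Igfbp5 (11.08, against 12.00 to 12.02 in the other rapamycin kidneys). In heart, rapamycin mouse 3 was distant for Igf1r (6.262, against 5.73 to 5.79), and 25-week control 2 was distant for Igfbp5 (11.24, against 10.89 to 10.93). The age difference of Igf1 was larger in kidney than in heart by 0.639 on the log2 scale in the fit with 29 arrays, by a test of the difference itself.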

How the results depend on the processing

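Across the alternatives, 3381 of 3429 member values kept their direction, or were called in neither setting, and their side of the threshold, 36 passed it newly, 10 no longer passed and 2 reversed; 331 of the 3381, called in neither setting, changed sign. The number of members called between 25-month and 25-week control kidneys, 0 with all 10 arrays, was 1 with array weights, 1 with only the arrays compared and 0 to 1 when single mice were left out. On the 9 kidney arrays, an alternative chosen after seeing the data left out a further mouse and gave 0 to 2, the 2 being Igf1 and Igf1r (-0.65, adjusted p = 0.0343) without 25-month control 2, which leaves 1 mouse in that group, assumed to vary like the others; no background correction, median scaling, the authors' value table, no detection filter, a replicate block and only the arrays compared each gave 1. Igf1 then ranged from 0.25 with no background correction (adjusted p = 0.0124) to 0.78 with the authors' table (0.0142); the replicate block gave 0.67 (adjusted p = 0.0207), and same-numbered mice correlated from -0.24 to 0.35. For rapamycin against 25-week kidneys, the one comparison on 9 arrays with every same-numbered pair over 0.1, the block gave Igf1 0.26 (adjusted p = 0.19) and took the genes called from 854 to 463, none of them a member; it changed no other call of a member. Between rapamycin and 25-week kidneys the count of 0 became 2 with array weights, 1 on 9 arrays with median scaling and 0 to 1 when mice were left out. Igfbp4 probe ILMN_2694955 reversed when rapamycin mice 1 and 2 were both left out, to 0.78 against 25-month controls (adjusted p = 0.034; -0.21 with all arrays) and 0.47 against young (adjusted p = 0.0232; -0.52 with all arrays); over all mice left out it ranged from -0.55 to 0.78 and from -0.86 to 0.47. In brain the count between rapamycin and young was 1, Foxo1, with no background correction (0.24, adjusted p = 0.0418), with array weights (0.40, 0.0248) and without 25-week control 4 (0.44, 0.0301). Median scaling left 3 of 6 members called between brain and heart. The count of members whose age difference differed between kidney and heart was 1 without the kidney array of rapamycin mouse 2, and for rapamycin against young it was 0 to 1, the 1 being Igf1 without rapamycin mouse 1 (0.77, adjusted p = 0.0225) and Igfbp3 without rapamycin mouse 2 (-0.98, adjusted p = 0.04). The grouping by title turns the sign of the age difference by construction. Slide could not be fitted. The cause of these changes was not tested. With 2 mice in the 25-month control group, each of them weighs heavily, and probes near background, such as Irs1, carry small differences that the signal cannot resolve.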
